A study of Mus musculus with 10 samples.

Results

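The transcription factors that give squamous epithelium its identity and carry its differentiation were followed here as 10 genes, taken by their symbols from a table of 56691 genes. The 5 basal identity factors were Trp63, Sox2, Pax9, Klf5 and Tfap2c, and the 5 differentiation factors were Klf4, Grhl1, Grhl3, Ovol1 and Zfp750. Each symbol matched 1 gene, and all 10 were among the 11386 genes that reached at least 1 FPKM (fragments per gene, scaled by gene length and library total) in at least 5 libraries and were tested. In GENCODE M21 they lie on chromosomes 16 (Trp63), 3 (Sox2), 12 (Pax9 and Grhl1), 14 (Klf5), 2 (Tfap2c), 4 (Klf4 and Grhl3), 19 (Ovol1) and 11 (Zfp750). RNA-seq covered 10 libraries of mouse esophageal epithelium, 5 wild type and 5 knockout for the Hippo pathway kinases Mst1 and Mst2 (gene symbols Stk4 and Stk3). The knockout genotype was p63CreERT2;Mst1 loxP/loxP;Mst2-/-, that is, a tamoxifen-inducible Cre allele named for p63, an Mst1 gene flanked by loxP sites and null alleles of Mst2. Mice of both groups received 3 doses of tamoxifen at 100 mg/kg, one every 2 weeks, and the epithelium was collected for RNA at around 8 weeks. The labels used here give neither age nor strain, and they do not say whether the 5 libraries of a group came from 5 mice, so each p-value refers to the spread among these libraries.

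In stratified epithelium, dividing basal cells rest on the basement membrane, and their daughters move upwards, leave the cell cycle and mature into flattened, keratin-filled cells. p63, SOX2, PAX9, KLF5 and AP-2 gamma (the protein of Tfap2c) set up and maintain the squamous program, largely from the basal layer, whereas KLF4, the grainyhead-like factors, OVOL1 and ZNF750 (the human name of the Zfp750 product) act mainly as cells leave that layer. MST1 and MST2 work upstream in the Hippo pathway, whose output is to hold back YAP and TAZ, partners of the TEAD factors on DNA. SOX2 and p63 are needed for the esophagus to separate and stratify, and KLF4 and ZNF750 for full differentiation of squamous cells.

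Stk3 checked the Mst2 part of the knockout label: its level was 2.62 ± 0.521 FPKM (SD, n = 5) in wild type and 0.134 ± 0.0862 FPKM in knockout (limma, adjusted p = 2.78e-06). It met the filter through the wild-type libraries alone, the knockout ones being at 0.05 to 0.25 FPKM. Stk4, the loxP-flanked gene, was 19.3 FPKM (wild type) and 15.6 FPKM (knockout), with overlapping ranges (limma, adjusted p = 0.123). A value for the whole gene does not read the loxP-flanked stretch alone, so the deletion of Mst1 was not shown by these values, and knockout here names the labelled genotype. The libraries held an estimated 13070000 to 16440000 fragments each, and 10878 to 11606 genes per library reached 1 FPKM. Markers of the tissue were abundant: Krt13, a keratin of the esophageal upper layers, was at 36764 FPKM (wild type) and 36642 FPKM (knockout), and the basal keratin Krt5 at 1718 and 2227 FPKM. Of 12 tissue markers tested, 3 were called: Sprr3, an envelope protein, rose from 4895 to 8574 FPKM (limma, adjusted p = 0.0219), while Krt78 went from 732 to 392 FPKM (adjusted p = 0.0385) and Perp is given with the genes regulated by p63. The Sprr3 call was lost without wild-type library 1 or 5, and the Krt78 call without any 1 of 7 libraries (wild type 1, 2, 3 and 5, knockout 2, 3 and 5). Over all tested genes, 900 were called higher in knockout (7.9% of those tested) and 565 lower (4.96%), 12.9% in either direction. Calls were 61.4% higher ones in this scaling, 50.8% with median-of-ratios scaling and 47.9% with quantile normalization, and the median log2 change of all tested genes moved from 0.06 to 0.02 and 0.01.

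Of the 10 members, Trp63 alone passed the test, and it fell. Among the basal identity factors 1 of 5 was lower and 0 were higher. Tfap2c and Pax9 had unadjusted limma p-values of 0.0103 and 0.0292 and missed the threshold (limma, adjusted p = 0.0658 and 0.122). Among the differentiation factors 0 of 5 were called in either direction by limma, with Ovol1 at an unadjusted p of 0.0209 (limma, adjusted p = 0.0991). The share of all tested genes with unadjusted p-values this small was not counted. Wild-type library 2 had the lowest wild-type value of 8 members, and without it 3 basal factors (Trp63, Pax9 and Tfap2c) were called lower. The share called over all tested genes, 12.9%, is near the share of members, 1 of 10. The knockout and wild-type ranges did not overlap for Trp63 and Tfap2c, both lower in knockout, beside 10.5% of all tested genes in either direction, 3.88% in the lower one and 6.62% in the higher one.

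**Figure D1:**
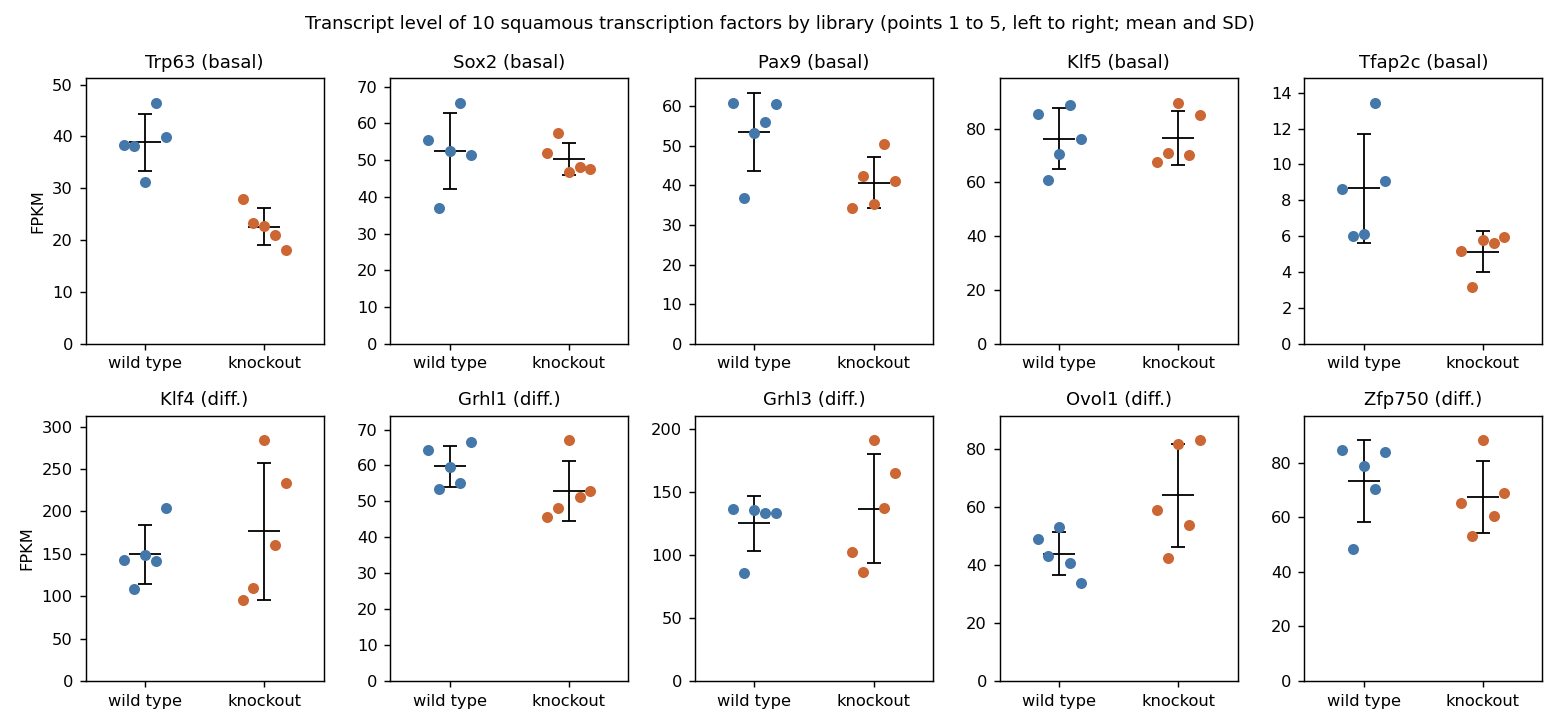
FPKM of the 10 members in each library, 5 wild type and 5 knockout, with bars at the group mean ± SD. All 5 knockout libraries of Trp63, 18.15 to 27.88 FPKM, sit below the 5 wild-type libraries, 31.24 to 46.53 FPKM, while the ranges of Sox2, Klf5 and Klf4 overlap.

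Trp63 encodes p63, the transcription factor without which squamous epithelia do not form (ENSMUSG00000022510). In wild type the 5 libraries read 38.35, 38.06, 31.24, 46.53 and 39.97 FPKM. In knockout they read 27.88, 23.36, 22.62, 20.87 and 18.15 FPKM. The highest knockout library thus lay below the lowest wild-type library, and the mean fell by 41.9%, from 38.8 ± 5.45 to 22.6 ± 3.58 FPKM (SD, n = 5). On the log2(FPKM + 1) scale used for all tests the difference was -0.76 (SE 0.13; 95% interval -1.04 to -0.48), past the threshold in limma (adjusted p = 0.00293). Leaving out any 1 of the 10 libraries kept the call, with limma adjusted p-values between 0.00215 and 0.0102. A covariate of mesenchymal and muscle markers ended it (limma, log2 difference -0.66, adjusted p = 0.374), and the same covariate computed without Dcn, itself far lower in knockout, did not (-0.75, adjusted p = 0.00419). With Dcn, the covariate did not overlap between the groups (0.191 to 0.265 in wild type, 0.101 to 0.169 in knockout). That fit can therefore hardly separate it from genotype, and no conclusion is drawn from the lost call. Within the libraries high and low in Dbp, the clock gene described with Klf4, the log2 difference was -0.66 and -0.76. In bulk RNA, fewer cells of a type and less RNA per cell cannot be told apart, here and in the results that follow. The table gives 1 value per gene, so the 8 annotated transcripts of Trp63, among them forms with and without the transactivating end of the protein, could not be told apart. Because the Cre allele of the knockout is named for p63, an effect of that allele on the measured transcript cannot be told apart from the rest of the genotype.

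The genes whose profile over the 10 libraries lay nearest to that of Trp63 were Alkbh6, Ccdc115 and Zbtb8a, at root mean square distances of 0.0917, 0.108 and 0.111 on the centred log2 scale, against a root mean square of 0.423 for Trp63 itself. Alkbh6 went from 4.78 to 2.48 FPKM (limma, adjusted p = 0.00222) and Ccdc115 from 9.65 to 5.62 FPKM (adjusted p = 0.00251). Zbtb8a went from 2.99 to 1.58 FPKM (limma, adjusted p = 0.0237). The distance includes the difference between the groups, so any gene with a like fall scores well. Among the genes beside Trp63 in the genome, Tprg was at 69.4 FPKM (wild type) and 63.9 FPKM (knockout) (limma, adjusted p = 0.540), and P3h2 at 11.04 and 12.6 FPKM (adjusted p = 0.379).

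Tfap2c encodes AP-2 gamma, a factor of the surface ectoderm lineage, and had the lowest level of the members. Its wild-type libraries read 8.61, 6.02, 6.11, 13.45 and 9.09 FPKM. The knockout libraries read 5.14, 3.13, 5.80, 5.59 and 5.97 FPKM. The ranges did not overlap, but by a narrow margin: the highest knockout library was at 5.97 FPKM and the lowest wild-type library at 6.02 FPKM. The log2 difference was -0.63 (SE 0.21; 95% interval -1.08 to -0.18) and missed the threshold (limma, adjusted p = 0.0658). It passed without wild-type library 2 (limma, adjusted p = 0.0417), without wild-type library 3 (adjusted p = 0.0467), with library quality weights (adjusted p = 0.0316), with quantile normalization (adjusted p = 0.0437) and with the covariate without Dcn (adjusted p = 0.0310). Tfap2c rested on 163 to 717 estimated fragments per library, with a counting error of up to 7.83%. No other member had a counting error above 2.9%.

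Pax9, a paired-box factor of the foregut and oral epithelium, read 60.99, 36.81, 53.26, 56.02 and 60.73 FPKM in wild type. It read 34.33, 42.34, 35.19, 50.45 and 41.10 FPKM in knockout. Wild-type library 2 lay among the knockout libraries, and the other 4 wild-type libraries lay above all 5 of them. The log2 difference of -0.38 (SE 0.15; 95% interval -0.71 to -0.05) missed the threshold (limma, adjusted p = 0.122). Without wild-type library 2 it was -0.51 and passed (limma, adjusted p = 0.0200), as it did with library quality weights (-0.44, adjusted p = 0.0362). Slc25a21, which shares 189 exon bases with Pax9 on the opposite strand, was at 0.854 FPKM (wild type) and 0.672 FPKM (knockout). The antisense gene Gm15524, which shares no exon base with Pax9, was at 13.5 and 10.0 FPKM (limma, adjusted p = 0.245).

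Sox2, the SOX factor that marks the esophageal side of the foregut, read 55.50, 36.84, 52.60, 65.71 and 51.44 FPKM in wild type. The knockout libraries read 51.90, 57.33, 46.72, 48.20 and 47.65 FPKM. They all lay inside the wild-type range, with a coefficient of variation of 8.67% against 19.8%. The log2 difference was -0.04 (SE 0.14; 95% interval -0.34 to 0.27; limma, adjusted p = 0.892), so a change of the size seen for Trp63 lies outside the interval. Klf5, a Krüppel-like factor linked to proliferation of basal cells, averaged 76.3 ± 11.4 FPKM in wild type against 76.6 ± 10.0 FPKM in knockout (SD, n = 5). Its ranges, 60.81 to 88.94 and 67.55 to 89.73 FPKM, overlapped, with a log2 difference of 0.01 (SE 0.13; 95% interval -0.27 to 0.29; limma, adjusted p = 0.972). The sign of differences this close to 0 changed with the scaling: for Klf5 it was -0.03 with median-of-ratios scaling and -0.12 with quantile normalization.

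**Figure D2:**
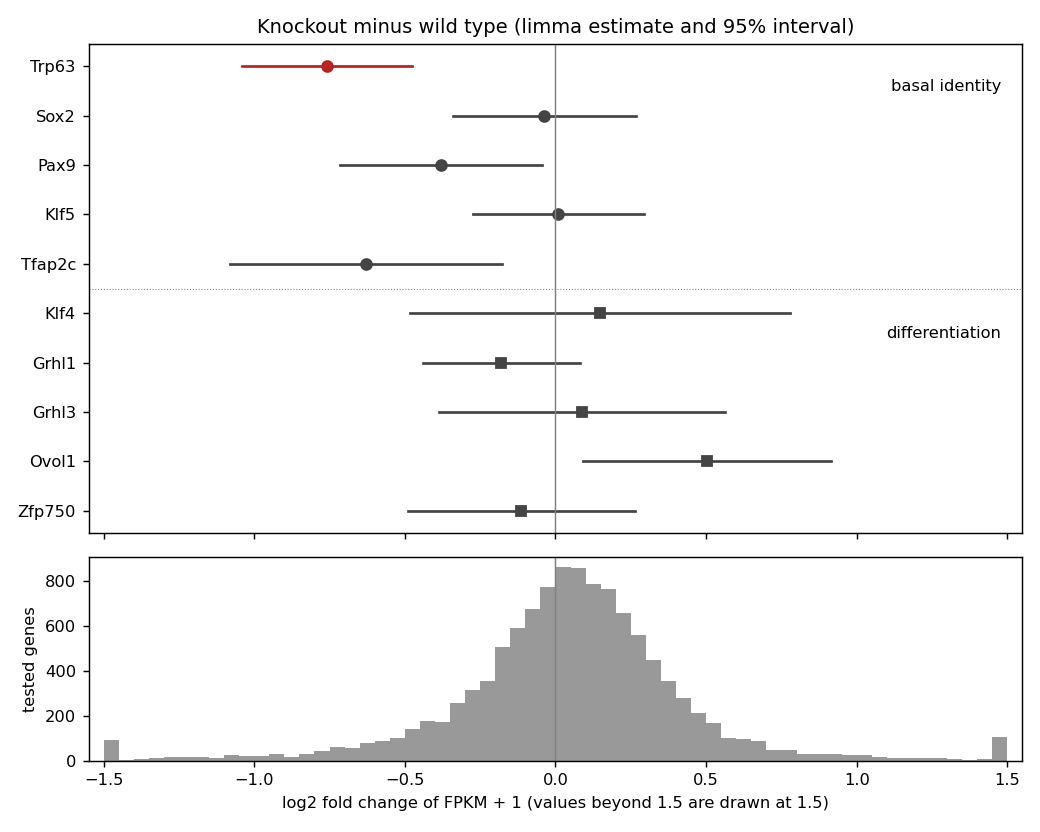
Difference of knockout minus wild type in log2(FPKM + 1) for each member, as the limma estimate with its 95% interval (top; circles basal identity, squares differentiation, red past the adjusted threshold), above the number of tested genes at each difference (bottom). The intervals of Trp63 (-1.04 to -0.48), Tfap2c and Pax9 lie below 0 and that of Ovol1 (0.09 to 0.92) above it, unadjusted for the number of genes; the others cross 0.

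Klf4 encodes a Krüppel-like factor of suprabasal cells that is needed for the epithelial barrier, and was the most abundant member in both groups. The wild-type libraries read 143.16, 108.51, 148.53, 141.86 and 203.89 FPKM. In knockout the values were 95.80, 110.12, 284.30, 160.01 and 233.10 FPKM. The knockout libraries reached both below and above the whole wild-type range, with a coefficient of variation of 45.6% against 23.1%. The log2 difference was 0.15 (SE 0.29; 95% interval -0.48 to 0.78; limma, adjusted p = 0.769), an interval that reaches from a fall to a rise. The libraries also differed in Dbp, an output gene of the circadian clock, which read 8.45 to 22.62 FPKM in wild-type libraries 1, 2 and 4 and knockout libraries 1 and 2, and 0.38 to 1.73 FPKM in the other 5. Klf4 was at 95.8 to 143.16 FPKM in the libraries high in Dbp and at 148.53 to 284.3 FPKM in those low in Dbp, with no overlap. It was the 1 member of 10 for which these classes did not overlap, beside 479 of the 11386 tested genes (4.21%). Within the classes its log2 difference between genotypes was -0.34 (high Dbp) and 0.33 (low Dbp). The part of whatever sets Dbp in these values was not tested.

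RefSeq promoter windows, from 250 bases before to 50 bases after the start site, were found for 5 members (Sox2, Pax9, Klf4, Grhl1 with 2 start sites, and Grhl3) on the build GRCm38.p6. The windows of Klf4, at chr4:55532426-55532725 on the minus strand, and of Grhl3, at chr4:135573583-135573882 on the minus strand, are shown because these 2 members had the highest levels and, in FPKM, the widest ranges over the libraries. On the log2 scale Grhl3 varied less than Tfap2c, Trp63 and Ovol1. Capitals mark matches, on either strand, to CACCC, a sequence that KLF factors recognise, and to CACGTG, an E-box bound by clock and other helix-loop-helix factors. No other sequence was searched for KLF factors, so a window without CACCC may still hold one.
Klf4: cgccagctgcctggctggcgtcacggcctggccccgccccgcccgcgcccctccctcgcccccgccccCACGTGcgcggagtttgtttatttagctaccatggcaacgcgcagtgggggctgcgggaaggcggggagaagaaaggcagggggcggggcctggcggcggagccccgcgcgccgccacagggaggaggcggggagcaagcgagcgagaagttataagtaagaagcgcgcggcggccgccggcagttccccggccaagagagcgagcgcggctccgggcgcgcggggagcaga
Grhl3: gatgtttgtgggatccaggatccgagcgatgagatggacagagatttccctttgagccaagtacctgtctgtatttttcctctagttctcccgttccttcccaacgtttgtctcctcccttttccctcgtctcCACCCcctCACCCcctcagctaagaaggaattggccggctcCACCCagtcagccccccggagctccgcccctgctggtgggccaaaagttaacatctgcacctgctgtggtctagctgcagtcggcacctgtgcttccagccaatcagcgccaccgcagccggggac
The Klf4 window held 1 E-box, at position -182 from the start site, and no CACCC, with a G and C content of 74.3%. The Grhl3 window held CACCC at positions -117, -109 and -76 and no E-box, with a G and C content of 58.3%. CACCC was found in 57.5% of all 32851 RefSeq windows of this length and CACGTG in 7.15%, and their median G and C content was 52.7%. The TEAD letters CATTCC, in 14.7% of all windows, were not found in any of the 6 member windows. Other letters were searched as well. The Klf4 window held the AP-2 letters GCCNNNGGC (N being any base) at -9, found in 16.6% of all windows. The Grhl3 window held CCAAT at -88 and 24, found in 37.4%. These matches are letters in a window and not binding sites, and a link of any of them to Dbp or genotype was not tested.

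Grhl3, a grainyhead-like factor needed for barrier formation, read 135.97, 85.82, 135.76, 133.48 and 133.39 FPKM in wild type. In knockout it read 102.45, 86.34, 191.19, 137.33 and 165.09 FPKM. Wild-type libraries 1, 3, 4 and 5 lay between 133.39 and 135.97 FPKM, and wild-type library 2 stood below them, while the knockout range covered all of these values but that of wild-type library 2. The log2 difference was 0.09 (SE 0.22; 95% interval -0.39 to 0.56; limma, adjusted p = 0.826), and -0.04 without wild-type library 2. Grhl1, its relative that regulates desmosomal cadherins, averaged 59.8 ± 5.72 FPKM in wild type against 52.98 ± 8.39 FPKM in knockout (SD, n = 5). Its knockout range, 45.59 to 67.12 FPKM, covered the wild-type range, and the log2 difference was -0.18 (SE 0.12; 95% interval -0.44 to 0.08; limma, adjusted p = 0.342).

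Ovol1, a zinc finger repressor that ends the proliferative state as cells leave the basal layer, read 48.91, 43.22, 53.20, 40.53 and 33.75 FPKM in wild type. It read 58.89, 42.28, 81.63, 53.80 and 83.10 FPKM in knockout. Knockout libraries 1, 3, 4 and 5 lay above all wild-type libraries, and knockout library 2 lay within their range. The log2 difference was 0.50 (SE 0.19; 95% interval 0.09 to 0.92) and missed the threshold (limma, adjusted p = 0.0991). Without knockout library 2 it was 0.64 and passed (limma, adjusted p = 0.0384). It was 0.18 in the libraries high in Dbp and 0.74 in those low in Dbp. Ovol1 shared the most sequence of the members: 0.205 of its 31-base sequences, counted on either strand, occur in another gene. That count takes in the exon bases it shares with genes on the opposite strand. These were 690 bases with Gm31166, a pseudogene at a mean of 0.122 FPKM, and 76 with AC126029.1, at 0.085 FPKM. For the other 9 members the share of 31-base sequences in another gene was at most 0.0445.

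Zfp750, a factor that p63 activates and that drives terminal differentiation, averaged 73.3 ± 15.0 FPKM in wild type against 67.3 ± 13.2 FPKM in knockout (SD, n = 5). The ranges, 48.42 to 84.62 and 53.15 to 88.45 FPKM, overlapped, with a log2 difference of -0.11 (SE 0.17; 95% interval -0.49 to 0.26; limma, adjusted p = 0.702). Zfp750 lies within Tbcd on the opposite strand, with no shared exon base, and Tbcd itself fell from 7.26 ± 1.32 to 4.53 ± 0.617 FPKM (adjusted p = 0.0121 in limma).

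**Figure D3:**
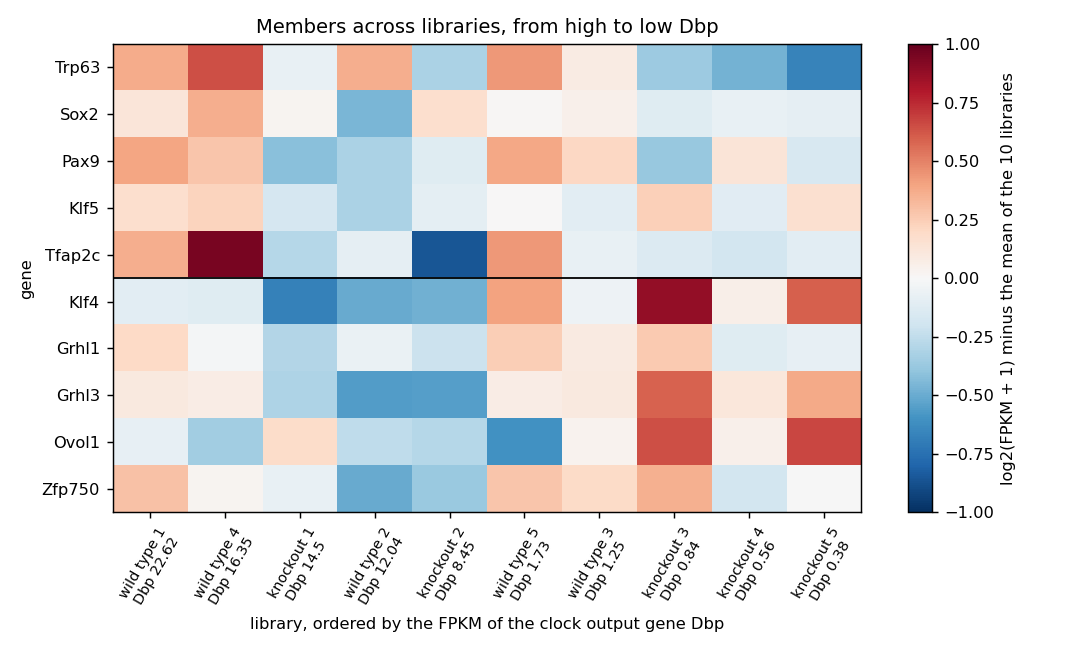
Each member (vertical) in each of the 10 libraries (horizontal, ordered from high to low FPKM of Dbp), coloured by log2(FPKM + 1) minus the member's mean over the libraries, red above and blue below. Trp63 is blue in all 5 knockout libraries, and Klf4 is darkest red in knockout library 3, at 284.30 FPKM.

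In wild type the order of mean FPKM was Klf4, Grhl3, Klf5, Zfp750, Grhl1, Pax9, Sox2, Ovol1, Trp63 and Tfap2c, and every neighbouring pair except Trp63 and Tfap2c had overlapping ranges. In knockout Ovol1 stood in the fifth place and Sox2 above Pax9, the other members keeping their order, and the ranges of Pax9 and Trp63 and of Trp63 and Tfap2c did not overlap. Klf4 lay above 97.6% of tested genes in wild type and Tfap2c above 60.6%, while Trp63 lay above 90.3% in wild type and 82.3% in knockout. The mean log2(FPKM + 1) of the basal factors spanned 4.91 to 5.56 in the wild-type libraries and 4.82 to 4.93 in the knockout ones, and that of the differentiation factors 6.01 to 6.47 and 6.01 to 6.94. The mean of the basal factors was 5.25 ± 0.25 on that scale in wild type and 4.89 ± 0.04 in knockout (SD, n = 5). The difference between the differentiation and the basal mean ran from 0.753 to 1.36 in wild type and from 1.19 to 2.02 in knockout, with overlap. Wild-type library 2 was the lowest of its group for each member but Trp63 and Ovol1. Knockout library 3 had the highest knockout value for 5 members, Klf5, Klf4, Grhl1, Grhl3 and Zfp750.

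**Figure D4:**
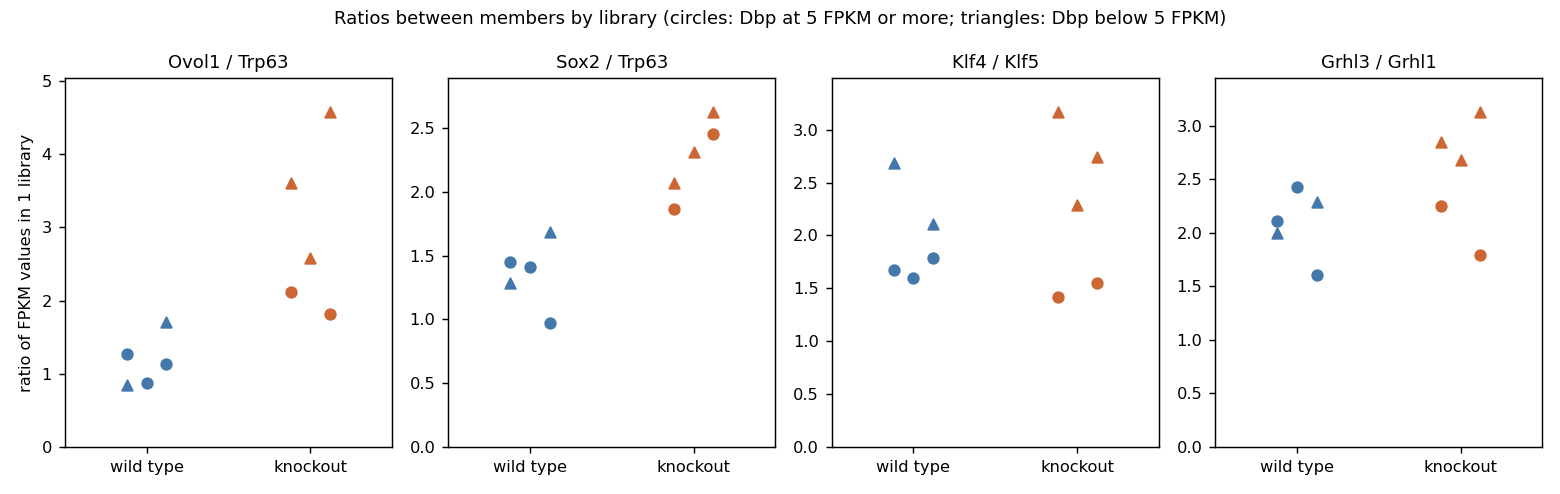
Ratio of FPKM values of 2 members within each library (circles high in Dbp, triangles low), so that the total of a library cancels. Ovol1 over Trp63 was 0.844 to 1.70 in wild-type libraries and 1.81 to 4.58 in knockout ones, and Sox2 over Trp63 was 0.968 to 1.68 and 1.86 to 2.63, each without overlap, whereas Klf4 over Klf5 and Grhl3 over Grhl1 overlapped.

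Within a library, the ratio of 2 members is free of that library's scaling. Ovol1 over Trp63 ran from 0.844 to 1.70 in wild type and from 1.81 to 4.58 in knockout. Sox2 over Trp63 ran from 0.968 to 1.68 and from 1.86 to 2.63. Both ratios were chosen after the values were seen, and both hold Trp63, so they are given with no test. Klf4 over Klf5 (1.60 to 2.68 and 1.42 to 3.17) and Grhl3 over Grhl1 (1.61 to 2.42 and 1.80 to 3.13) overlapped.

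Other members of the same families were mostly lower. Trp63 was the most abundant of the p53 family, ahead of Trp53 at a mean of 11.3 FPKM over all 10 libraries and Trp73 at 2.00 FPKM. Sox2 led the 19 SOX genes, followed by Sox15 at 48.5 FPKM, and Pax9 at 47.1 FPKM was the only PAX gene above 0.016 FPKM. Of 17 KLF genes Klf4 (163 FPKM) and Klf5 (76.5 FPKM) were followed by Klf6 (65.8 FPKM). In the AP-2 family Tfap2a, at 14.0 FPKM, stood above Tfap2c at 6.89 FPKM. Of 21 tested relatives 1 was higher and 1 lower, 9.52% against 12.9% of all tested genes. Klf10, a Krüppel-like factor induced by TGF-beta, rose from 18.8 to 26.8 FPKM (limma, adjusted p = 0.0318), a call lost without any 1 of 5 libraries (wild type 1 and 5, knockout 1, 4 and 5). Klf12 fell from 4.36 to 1.00 FPKM, a log2 difference of -1.44 (limma, adjusted p = 0.000189), and passed with any 1 library left out.

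Related genes were taken from lists chosen with earlier results of these data known, and are described by counts and medians beside the median log2 difference of 0.06 over all tested genes. Of 30 tested genes known to be regulated by p63, 5 fell, 1 rose and 24 did not pass, 20% called beside 12.9% of all tested genes (4.96% lower, 7.9% higher), with a median of -0.20. The list does not separate genes that p63 raises from genes that it lowers. Its median and counts therefore do not measure a response to the level of Trp63. Perp, a desmosomal protein under p63 and p53, fell from 2356 to 1579 FPKM (adjusted p = 0.0154 in limma). Hbegf, a ligand of the EGF receptor, rose from 6.19 ± 1.83 to 24.7 ± 13.5 FPKM (limma, adjusted p = 0.00661). Perp and Hbegf passed with any 1 library left out. The hemidesmosome collagen Col17a1 fell from 133 to 75.8 FPKM (adjusted p = 0.0444 in limma), Lama3 from 7.31 to 3.38 FPKM (adjusted p = 0.0259) and Fgfr2 from 15.4 to 11.9 FPKM (adjusted p = 0.0487). The Col17a1 call was lost without any 1 of 7 libraries (wild type 1, 2, 4 and 5, knockout 3, 4 and 5) and the Fgfr2 call without any 1 of 8 (all but wild type 2 and 3). The Lama3 call was lost without wild-type library 1, knockout library 3 or knockout library 5, and the count of genes called lower in this list ran from 2 to 6 when 1 library was left out. The basal keratins Krt5 and Krt14, also in this list, were not called (limma, adjusted p = 0.201 and 0.643).

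**Figure D5:**
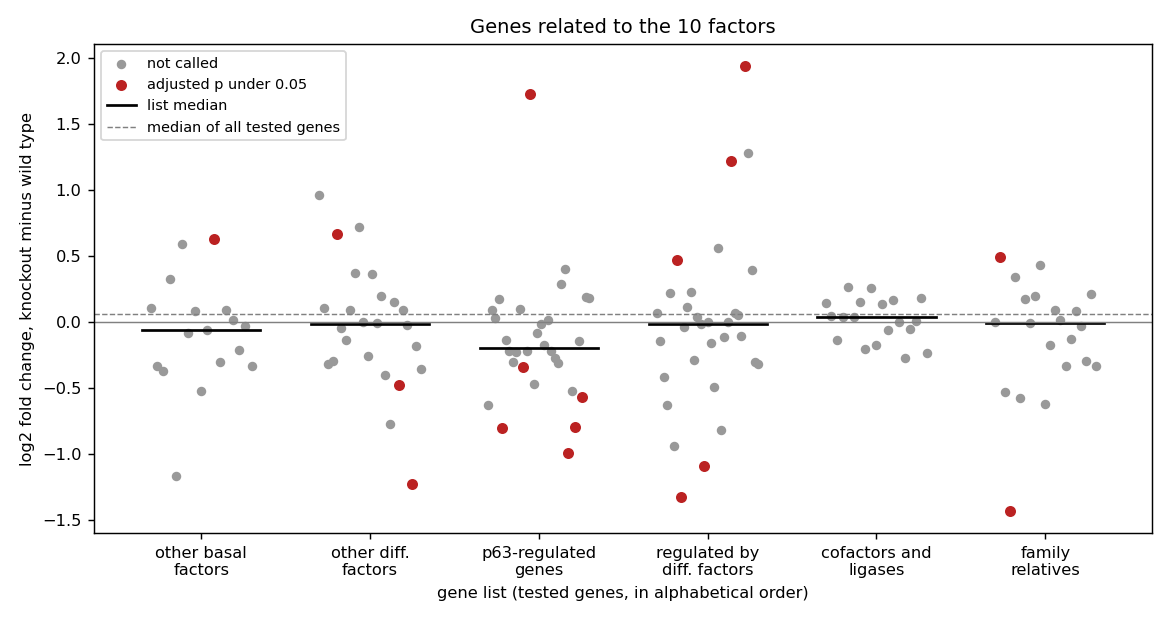
log2(FPKM + 1) difference of knockout minus wild type for the tested genes of the related lists, with called genes marked in red, a bar at each list's median and a dashed line at the median of all tested genes, 0.06. The list of genes regulated by p63 has its median at -0.20 and 5 genes called lower, and the other 5 lists drawn have medians between -0.06 and 0.03.

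Of 31 tested genes known to be regulated by the differentiation factors, 3 rose, 2 fell and 26 did not pass, 16.1% called beside 12.9% of all tested genes, with a median of -0.02. Sprr1a, a small proline-rich protein of the cornified envelope, rose from 341 ± 68.6 to 1399 ± 635 FPKM (limma, adjusted p = 0.00129), and Rab15, a small GTPase, from 11.7 to 29.98 FPKM (adjusted p = 0.0156). Cldn4, a tight junction protein, rose from 49.8 to 70.6 FPKM (limma, adjusted p = 0.0454). Dsg1a, the desmosomal cadherin that GRHL1 is known to regulate, fell from 190 ± 30.8 to 75.6 ± 13.9 FPKM, a log2 difference of -1.33 (limma, adjusted p = 0.000273), but 0.414 of its 31-base sequences occur in another gene. Ivl, involucrin, fell from 2.45 to 0.512 FPKM (adjusted p = 0.0416 in limma). Of the knockout libraries only library 3, at 1.2 FPKM, reached 1 FPKM, so Ivl met the filter mainly through the wild-type libraries. The Ivl call was lost without any 1 of 7 libraries (wild type 1, 3 and 5, knockout 1, 2, 4 and 5) and the Cldn4 call without any 1 library other than knockout 4, while Sprr1a, Rab15 and Dsg1a passed in each case.

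Of 24 other differentiation factors 1 rose, 2 fell and 21 did not pass, 12.5% called beside 12.9% of all tested genes, with a median of -0.02. Rora, a nuclear receptor that also acts in the clock, fell from 14.1 ± 1.90 to 5.48 ± 1.29 FPKM, a log2 difference of -1.23 (limma, adjusted p = 0.000155). Pou2f3, a POU factor of squamous and tuft cells, fell from 3.62 to 2.29 FPKM (adjusted p = 0.0174 in limma), and Cebpb rose from 23.0 to 36.2 FPKM (adjusted p = 0.0419), a call lost without any 1 of 7 libraries (wild type 1 and 5 and each knockout library). Of 17 other basal factors 1 rose, Runx1, from 0.812 to 1.85 FPKM (limma, adjusted p = 0.0262), a call lost without wild-type library 5 or knockout library 1, and 16 did not pass, 5.88% called. Runx1 was at 0.5 to 0.98 FPKM in the wild-type libraries and at 1.24 to 3.06 FPKM in the knockout ones. It thus met the filter of 1 FPKM only through the group in which it was high. Cofactors and ubiquitin ligases of the members numbered 19 tested genes, of which limma called 0, with 3 at an unadjusted p under 0.05. One of these was Wwp1, a ligase of p63 and KLF5, at 23.0 FPKM in wild type and 19.3 FPKM after knockout. Of the mesenchymal genes that Ovol and Grhl factors hold down, Snai2 alone was tested, at 13.02 FPKM (wild type) and 11 FPKM (knockout). Snai2 is also counted among the other basal factors above, so its level does not by itself mark mesenchyme. Zeb1, Twist1 and Fn1 were at or near 0 and Vim, also untested, was at 0.25 to 2.59 FPKM.

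Most defining markers of other cell types were at or near 0. The summed fibroblast markers were 8.51 to 18.24 FPKM in the wild-type libraries and 2.23 to 5.43 FPKM in the knockout ones, and 2 of 10 were tested. The fall lay in Dcn, which went from 8.59 to 0.308 FPKM (limma, adjusted p = 8.62e-05), while the collagens Col1a1 and Col1a2, Pdgfra and Lum were at or near 0 in every library. The knockout mean of Dcn lay below the filter of 1 FPKM, so Dcn met that filter mainly through the wild-type libraries, in which it was high. Endothelial markers summed to at most 0.37 FPKM, muscle markers to at most 1.08 FPKM and melanocyte markers to at most 1.09 FPKM. Of the nerve and Schwann markers Erbb3, which epithelia also express, was at 19.36 to 35.46 FPKM, while Sox10 was listed at 0 in all 10 libraries. Tubb3, the other tested gene of that list, ran from 0.72 to 11.52 FPKM in wild type and from 4.73 to 21.38 FPKM in knockout, with overlap (limma, adjusted p = 0.132). Markers of simple and glandular epithelium summed to 0.15 to 1.64 FPKM in the wild-type libraries and 0.56 to 6.59 FPKM in the knockout ones. The covariate of mesenchymal and muscle markers that ended the call of Trp63 left 39 genes higher and 36 lower over all tested genes, and called 0 of the genes regulated by p63. That covariate did not overlap between the groups, so its fit can hardly separate it from genotype. The summed immune markers were 14.6 to 75.4 FPKM in the wild-type libraries and 31.7 to 494 FPKM in the knockout ones. Of these, S100a8, which squamous cells also make, ran from 1.65 to 37.5 FPKM in wild type and from 14.66 to 462.81 FPKM in knockout (limma, adjusted p = 0.0938). Cd68, a lysosomal protein of macrophages, averaged 6.63 and 11.4 FPKM (limma, adjusted p = 0.0787), Cd74 13.97 and 9.76 FPKM (adjusted p = 0.733) and H2-Ab1 5.28 and 4.36 FPKM (adjusted p = 0.711). The part of these markers in the results for the members was not tested beyond these values.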

How the data were processed

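RNA-seq of esophageal epithelium was measured in 10 libraries, grouped by the genotype in the labels. Muscle and, after Dispase, mesenchyme had been peeled off the epithelium, per the labels' protocols. The authors deposited FPKM values per gene. The tools named are HISAT2 2.0.1, HTSeq 0.6.1 and cutadapt, with the build mm9, per the submitters' processing notes. For settings, annotation and strand, the sources used here say nothing. Sense and antisense reads can therefore not be told apart. Gene names and shared 31-base sequences came from GENCODE M21 (GRCm38, not mm9), and promoters from RefSeq.

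The 11386 genes reaching 1 FPKM in 5 or more libraries were tested as log2(FPKM + 1), from the deposited FPKM, with limma 3.58.1 in R 4.3.3: a single genotype term, robust empirical Bayes with a mean-variance trend, Benjamini-Hochberg adjustment over all tested genes, threshold 0.05. The log2 scale understates changes of low genes. No count table was used here. Depth was estimated from single-exon genes of up to 1200 bp, whose values were whole fragments within 0.01 fragments beyond rounding for 90.2% to 97.8% of values, against 9.46% to 11.3% by chance. On simulated data for knockout against wild type, with 200 of 11386 genes changed, the test recovered 25% of changes of 0.5 log2 units, 85% of 1 and 99% of 2. In the same order, 9.09%, 3.95% and 4.81% of its calls were false.

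Named were the 10 members, Stk3 and Stk4, up to 6 genes of each related list by smallest p and 4 by level, relatives, marker genes, neighbours and the 3 nearest profiles to a called member. A gene that this rule names is not reported here. The members and lists were chosen with earlier results of these data known. Alternatives were other pseudocounts, filters, scalings, thresholds, empirical Bayes without trend, library weights, a replicate block, covariates and leaving out each library. The covariate without Dcn was chosen after seeing the data. Python 3.11.15 with pandas 2.3.3 and matplotlib 3.10.9 made the summaries and figures.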

Additional observations from a re-analysis of the deposited data

Results flagged for a closer look

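Grhl3 in wild-type library 2 was at 85.82 FPKM, below the other 4 wild-type libraries at 133.39 to 135.97 FPKM, a gap larger than Dixon's limit for 5 values. This was 1 of 20 groups examined (10 members in 2 genotypes), and chance gives about 1 in 20. The same library was the lowest of its group for 8 of the 10 members, and its summed FPKM was the highest of the 10 libraries, at 417148.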

How the results depend on the processing

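The fall of Trp63 kept its direction under all alternatives run, and lost its call only with the covariate of mesenchymal and muscle markers (limma, adjusted p = 0.374). That covariate did not overlap between the groups, so results with it are hard to separate from genotype. The count of basal factors called lower, 1, became 2 with quantile normalization, the replicate block, the covariate without Dcn and a threshold of 0.1, 3 with library weights and 0 with the mesenchymal covariate; it was 1 to 3 with 1 library left out. The count of differentiation factors called higher, 0, became 1 at a threshold of 0.1 and was 0 to 1 with 1 library left out. Over all tested genes the count called higher was 511 with no filter, 1390 with library weights, 39 with the mesenchymal covariate, 293 and 1533 at thresholds of 0.01 and 0.1, and 436 to 1091 with 1 library left out. The count called lower was 329 with a filter at 5 FPKM, 36 with the mesenchymal covariate, 245 and 887 at those thresholds, and 357 to 679 with 1 library left out. Signs changed for differences near 0 and under the covariates. With the mesenchymal covariate the log2 difference was 0.21 for Sox2, 0.14 for Pax9, 0.31 for Tfap2c and 0.32 for Zfp750. With the clock covariate it was 0.034 for Sox2, -0.020 for Klf5, -0.22 for Klf4 and -0.15 for Grhl3. Klf5 was -0.030 with median-of-ratios scaling, -0.12 with quantile normalization, -0.021 with library weights and -0.0091 with the covariate without Dcn, and Grhl3 was -0.045 with quantile normalization. With 1 library left out the difference ran across 0 for 4 members, from -0.16 to 0.049 for Sox2, -0.068 to 0.068 for Klf5, -0.053 to 0.34 for Klf4 and -0.048 to 0.24 for Grhl3. The cause of these changes was not tested. The main test did not treat same-numbered libraries as pairs, since the labels used here name no pairs. Within-group deviations of same-numbered libraries correlated at 0.0609, 0.423, 0.194, -0.241 and 0.107. Wild-type library 2 and knockout library 2 correlated best with each other, and not every library did so with its own number. These correlations cannot decide whether the libraries were paired. With the replicate block 773 genes were higher and 551 lower, and Tfap2c passed (adjusted p = 0.0305). The split by Dbp gives values only, with no count of called members. Depth limits Tfap2c, at 163 fragments in its lowest library.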
